A study of Mus musculus with 4 samples.

Results

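Chromatin accessibility was examined at 9 genes of cholesterol efflux and lipid uptake, namely Abca1, Abcg1, Apoe, Cd36, Msr1, Lpl, Fabp4, Fabp5 and Plin2, in mouse BMDMs (bone marrow-derived macrophages). The assay was ATAC-seq, in which adapters are placed into open DNA by the Tn5 transposase, and it covered 2 control libraries and 2 libraries of cells given IL-4 at 20 ng/ml for 1 h. All cells were wild type, came from C57BL/6 animals aged 8 to 12 weeks and were differentiated for 6 days in L929 supernatant, which supplies macrophage colony-stimulating factor (M-CSF). The study describes 2 biological replicates, and the labels number both groups 1 and 2. Overlapping peaks of the 4 libraries (1 bp or more) were joined into 60710 regions, and a region belonged to a gene when its highest peak carried that gene's name, the gene with the nearest transcription start site (TSS). By this rule 69 regions belonged to the 9 genes, and each of the 9 genes had at least 1 region. The deposited peak score, read as −log10 of the q-value and called peak height, states how strongly a peak stood out from its own library. Peaks measure open DNA, not RNA, and the nearest TSS does not show which gene a region acts on.

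Macrophages take up modified lipoproteins through the scavenger receptors CD36 and MSR1, and fatty acids that lipoprotein lipase (Lpl) releases from triglycerides. Fatty acid binding proteins (Fabp4, Fabp5) carry fatty acids inside the cell, and perilipin 2 (Plin2) coats the lipid droplets in which surplus lipid is stored. The transporters ABCA1 and ABCG1 export cholesterol to lipoprotein particles, and apolipoprotein E, the Apoe product, is one of its acceptors. The nuclear receptors LXR and PPARγ, which bind DNA as partners of RXR, are known regulators of many of these genes, and IL-4 acts through the transcription factor STAT6.

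Sequences of 7 regions are given because the results turn on them: 3 had a peak in one group alone, 1 had the largest increase of all, and 3 had the largest decreases, none of which passed the test given later. They were read from GRCm38.p6, the assembly behind mm10, on the plus strand, and regions longer than 300 bp are given by their central 300 bp. None of these stretches overlapped an annotated RefSeq exon. Capitals mark matches to the motifs described after the sequences, and a stretch without capitals held none of them.
Cd36 promoter, peak in both IL-4 libraries only, chr5:17835901-17836129: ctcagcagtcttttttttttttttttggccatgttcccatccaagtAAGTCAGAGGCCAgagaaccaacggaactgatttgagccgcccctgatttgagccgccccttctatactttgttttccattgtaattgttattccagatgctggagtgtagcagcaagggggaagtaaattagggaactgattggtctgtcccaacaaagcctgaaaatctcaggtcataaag
Msr1 intron 8, peak in both IL-4 libraries only, chr8:39601663-39601856: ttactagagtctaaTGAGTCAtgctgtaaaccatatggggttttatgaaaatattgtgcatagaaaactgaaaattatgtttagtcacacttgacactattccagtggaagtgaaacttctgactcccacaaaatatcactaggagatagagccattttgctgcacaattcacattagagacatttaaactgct
Plin2 upstream, larger after IL-4, chr4:86676849-86677045: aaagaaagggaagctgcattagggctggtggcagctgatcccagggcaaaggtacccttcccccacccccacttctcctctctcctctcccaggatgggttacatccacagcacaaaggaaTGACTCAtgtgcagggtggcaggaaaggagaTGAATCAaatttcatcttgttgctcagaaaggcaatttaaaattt
Abca1 intron 1, smaller after IL-4, chr4:53149718-53150017: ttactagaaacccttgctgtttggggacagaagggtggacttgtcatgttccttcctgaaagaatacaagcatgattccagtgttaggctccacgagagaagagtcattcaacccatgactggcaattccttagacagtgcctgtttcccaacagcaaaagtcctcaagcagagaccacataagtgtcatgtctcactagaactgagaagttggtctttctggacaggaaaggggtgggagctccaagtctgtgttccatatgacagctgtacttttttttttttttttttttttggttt
Plin2 upstream, smaller after IL-4, chr4:86679846-86680145: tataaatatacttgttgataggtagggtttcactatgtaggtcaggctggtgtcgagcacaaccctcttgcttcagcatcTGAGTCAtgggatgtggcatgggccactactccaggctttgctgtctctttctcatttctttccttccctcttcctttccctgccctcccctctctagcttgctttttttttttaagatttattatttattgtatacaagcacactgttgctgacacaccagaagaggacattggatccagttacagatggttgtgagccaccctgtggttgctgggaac
Fabp5 upstream, smaller after IL-4, chr3:9983975-9984270: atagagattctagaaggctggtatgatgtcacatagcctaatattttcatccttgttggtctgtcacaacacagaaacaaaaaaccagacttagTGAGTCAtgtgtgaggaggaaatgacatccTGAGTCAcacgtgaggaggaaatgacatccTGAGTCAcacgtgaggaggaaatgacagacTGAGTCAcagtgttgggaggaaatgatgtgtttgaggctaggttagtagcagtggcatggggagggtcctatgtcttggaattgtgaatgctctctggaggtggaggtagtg
Plin2 upstream, peak in both control libraries only, chr4:86689628-86689914: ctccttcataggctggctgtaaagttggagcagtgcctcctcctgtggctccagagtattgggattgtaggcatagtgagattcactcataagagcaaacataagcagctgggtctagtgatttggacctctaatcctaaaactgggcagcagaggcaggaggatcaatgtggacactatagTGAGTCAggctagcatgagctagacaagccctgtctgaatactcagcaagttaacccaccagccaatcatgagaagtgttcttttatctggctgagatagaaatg

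The motifs were searched on both strands of 300-bp windows centred on every region. TTCNNNNGAA, the spacing that STAT6 prefers, occurred in 13 of the 69 windows (18.8%) and in 9% of all 60710 windows. TTCNNNGAA, the shorter spacing of other STAT proteins, occurred in 14.5% against 8.87%. The AP-1 motif TGANTCA was the commonest, with 33.3% of the windows of the 9 genes against 23.3% of all windows. GAGGAAGT, a motif of the macrophage factor PU.1, occurred in 5.8% against 10.4%. Direct repeats of AGGTCA with 4 bases between the repeats (DR4, the LXR-RXR spacing) and with 1 base between (DR1, the PPAR-RXR spacing), with at most 1 mismatch in each repeat, occurred in 5.8% against 2.05% and in 4.35% against 2.33%. In the windows of the 9 genes, no match of one motif overlapped a match of another motif, except 1 pair of AP-1 and PU.1 matches. These shares are descriptions, and a match is not a binding site.

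The STAT6 spacing occurred in 4 Cd36 windows, 3 Msr1 windows, 2 windows each of Abca1 and Lpl, and 1 window each of Fabp4 and Fabp5. At Fabp4, and in some of the Cd36, Msr1 and Lpl windows, the match lay outside the region itself. In the Cd36 promoter printed above, the capitals are a DR1 match, and the STAT6 spacing lay in the window just outside the region. In the Fabp5 region the capitals are 4 AP-1 matches, which lay exactly 30 bp apart. At the efflux genes Abca1 and Apoe, no DR4 match occurred in the 11 windows and the 1 window. DR4 matches occurred only at Abcg1 and Lpl among the 9 genes, and they are given because DR4 is the LXR-RXR spacing.
Abcg1, 17.9 kb upstream, chr17:31039744-31039759: TGCCCTGAAGTAACCT
Abcg1, intron 2, chr17:31067183-31067198: TGCCCTGTAGTAACCT
Lpl, intron 1, chr8:68881190-68881205: TGACCGGTGGTGACCT
Lpl, 73.7 kb downstream of the TSS, chr8:68954249-68954264: AGGTTACTTCAGGTCA

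The first Abcg1 match lay in a region with a peak in 3 libraries, and each of the other 3 lay in the window of a region with a peak in 1 library.

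The number of regions differed widely between the genes. Msr1 had 13 regions, Abca1 and Cd36 had 11 each, Lpl and Plin2 had 9 each, Abcg1 had 7, Fabp5 had 5, Fabp4 had 3 and Apoe had 1. Of the 69 regions, 35 were intronic (50.7%, against 40.2% of all regions), 25 were intergenic (36.2% against 35.8%), 8 were at promoters (11.6% against 18.8%) and 1 was exonic. Of the intronic regions, 6 lay outside their named gene by the annotation. They were 5 Msr1 regions upstream of the gene, labelled as introns of a Mir669e transcript, and 1 Fabp4 region in an intron of Fabp12. No RefSeq gene overlapped these Msr1 regions, except Gm2033 at the farthest, so their label as intronic is uncertain. Few lay far from their genes, with 5 regions beyond 50 kb of the TSS (7.2% against 23.3%), while the share within 10 kb was much like that of all regions (44.9% against 43.3%). Cd36 had no region beyond 14.3 kb, whereas the farthest Msr1 region lay 99.9 kb upstream. Coordinates are those of mm10.

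**Figure D1:**
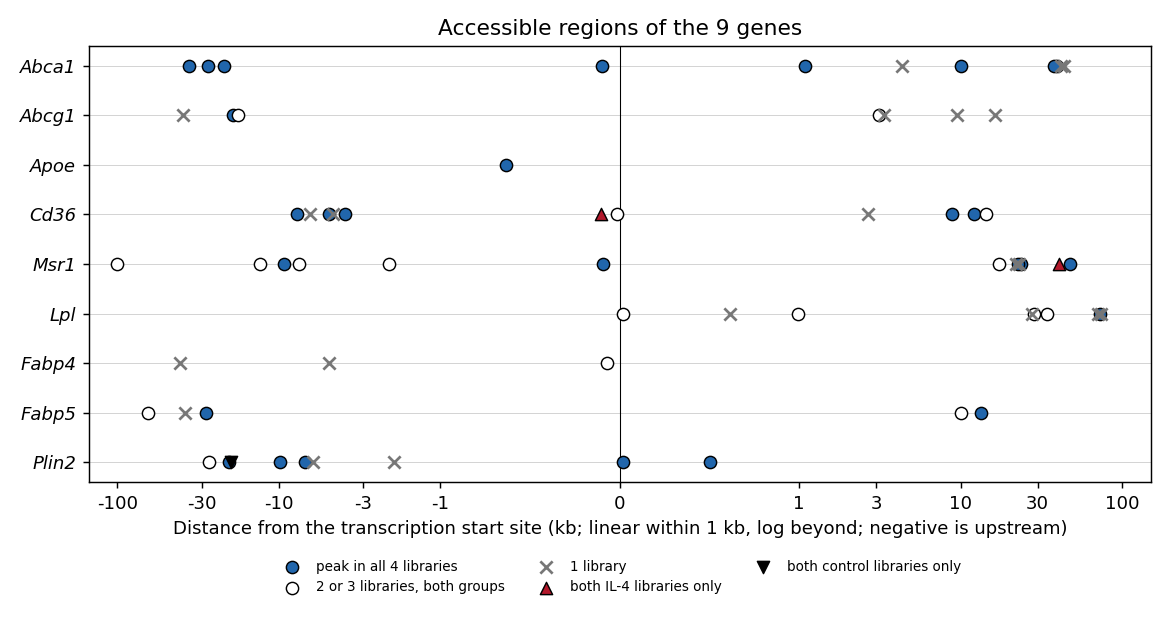
Each symbol is 1 of the 69 regions, placed by its distance from the TSS in kb (linear within 1 kb and logarithmic beyond) for the 9 genes, with symbols for the libraries that had a peak. Abca1 holds 8 regions with a peak in all 4 libraries on both sides of its TSS, while Fabp4 holds none.

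The genes also differed in how many of their regions were found in every library. A peak in all 4 libraries was present at 8 Abca1 regions, at 5 regions each of Cd36, Msr1 and Plin2, at 2 Fabp5 regions and at 1 region each of Abcg1, Apoe and Lpl. Fabp4 had none. In total 28 of the 69 regions (40.6%) had a peak in all 4 libraries, beside 41.9% of all regions, and 21 regions (30.4%, against 29.6%) were found in 1 library alone. The single-library regions were spread over the libraries, with 7 and 5 for the control replicates and 4 and 5 for the IL-4 replicates.

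Promoters were open in all 4 libraries at 4 genes. These were the promoters of Abca1, Apoe, Msr1 and Plin2. The Lpl promoter (chr8:68880475-68880748) had a peak height of 10.08 in control replicate 1, no peak in control replicate 2, and heights of 7.89 and 4.02 in the IL-4 libraries. The Fabp4 promoter (chr3:10208575-10208774) showed the same pattern, with 7.48 in control replicate 1, no peak in control replicate 2, and 4.11 and 4.69 in the IL-4 libraries. At both promoter regions control replicate 2 was the library without a peak. It did have a peak nearby at Lpl, in a separate region of intron 1 whose centre lay 612 bp downstream of the TSS (height 5.02, in that library alone). With peaks merged within 500 bp, Lpl had 2 regions shared by all 4 libraries in place of 1. These 2 promoters, the Lpl intron region, and the second Cd36 promoter described later, were chosen after their values were seen. No region lay within 1000 bp of the annotated TSS of Abcg1 or Fabp5 in any library, and Fabp5 had no region inside its gene body. Of the 3 annotated Cd36 start sites, the most distal had no region within 1000 bp.

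The first question was whether IL-4 changed how many regions of these genes were open. The control libraries had a peak at 48 and 42 of the 69 regions and the IL-4 libraries at 49 and 44. The IL-4 values bracketed the higher control value, so the groups overlapped. The means were 45.0 ± 4.24 (SD, n = 2) and 46.5 ± 3.54 (SD, n = 2), and the difference of 1.5 regions gave p = 0.6667 in a two-sided exact permutation test, for which 0.3333 is the smallest p possible with 2 libraries against 2. Of all 60710 regions, the control libraries had a peak at 43829 and 40483 and the IL-4 libraries at 40375 and 37730. In this wider count both IL-4 values were below both control values. Counted before merging, the libraries held 45250 and 41885 peaks (control) and 41978 and 39462 peaks (IL-4). The median peak heights were 8.04, 7.46, 7.69 and 6.41 in the same order. The depth of the libraries is unknown, since the files hold no reads, and the height grows with depth.

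**Figure D2:**
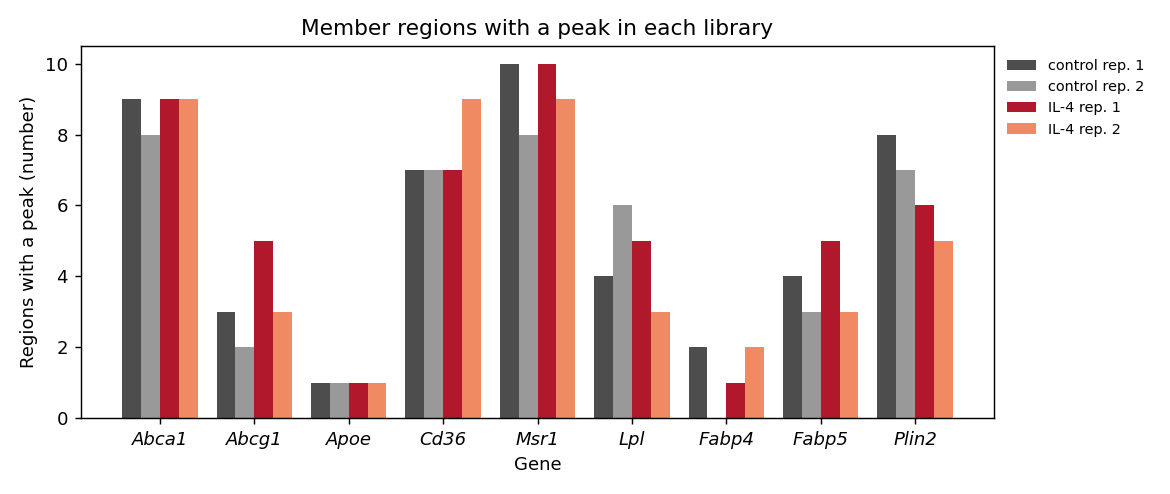
Bars give the number of regions with a peak for each of the 9 genes in each of the 4 libraries (no error bars, since each bar is 1 count). Plin2 had 8 and 7 regions in the control libraries, against 6 and 5 after IL-4, and Fabp4 had no peak in control replicate 2. Over all regions, both IL-4 libraries also had fewer regions with a peak than both control libraries.

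Plin2 was the 1 gene in which both IL-4 libraries had fewer regions than both control libraries, with 6 and 5 against 8 and 7. All regions together showed the same order, with 40375 and 37730 against 43829 and 40483, so it is not particular to Plin2. No gene had more regions in both IL-4 libraries than in both control libraries. At Cd36 the counts were 7 and 7 in the control libraries, against 7 and 9 after IL-4. At Abca1 they were 9 and 8 against 9 and 9, and at Msr1 10 and 8 against 10 and 9. These counts were not tested gene by gene.

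At 3 regions both libraries of a group shared a peak that was missing from both libraries of the other. Cd36 and Msr1 each had 1 IL-4-only region, which is 2.9% of the 69 regions beside 2.53% of all regions. Plin2 had 1 control-only region, which is 1.45% beside 4.33% of all regions. Both counts are small, and the IL-4-only share was near that of all regions. With peaks under a height of 5 left out, 0 IL-4-only and 3 control-only regions remained, so the split turned round.

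The IL-4-only Cd36 region lay at a promoter, 102 bp upstream of a start site (chr5:17835901-17836129). Its heights in the IL-4 libraries were 3.13 and 4.78, and neither control library had a peak. These heights ranked low within their libraries, at the percentiles 7.3 and 33.0 of all peaks. A second Cd36 promoter, of another start site, had a height of 3.63 in control replicate 2 and 4.82 in IL-4 replicate 2 and no peak in the other two libraries. The 5 Cd36 regions shared by all 4 libraries were intronic by the annotation.

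The IL-4-only Msr1 region lay in intron 8 of 9 (chr8:39601663-39601856), with heights of 5.34 and 3.73. Both heights were among those that recur most often, since 1712 peaks of IL-4 replicate 1 and 2653 peaks of IL-4 replicate 2 had exactly these values. The control-only Plin2 region lay 19804 bp upstream (chr4:86689628-86689914), with heights of 4.85 and 5.46 in the control libraries. Merging peaks within 500 bp joined it to another region, and no control-only region was then left.

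The next question was whether IL-4 changed peak height at the 28 regions that all 4 libraries shared. Heights were quantile-normalised, since libraries differ in their general height, and tested with limma over the 25442 such regions of the genome. No region of the 9 genes passed an adjusted p of 0.05 in either direction (Benjamini-Hochberg). Over all regions 0.0157% passed as higher after IL-4 and 0.00786% as lower. At an unadjusted p under 0.05, 1 region was higher (3.57%, against 4.12% of all regions) and 2 were lower (7.14%, against 4.15%). Both IL-4 libraries lay above both control libraries in normalised height at 6 regions (21.4%, against 19.2% of all regions), and below them at 6 regions (21.4%, against 18.6%). These shares were close to those of all regions. The log2 changes of the 28 regions, IL-4 minus control, had a median of −0.11 beside −0.001 for all regions, and an SD over regions of 0.597 beside 0.504. Of these changes 53.6% were below 0, beside 50.1% over all regions fitted. In data simulated with 200 changed regions, a log2 change of 1.5 was recovered in 67.5% and one of 2.5 in 100%. The simulation gave regions of like height the same spread, whereas real spreads differ between regions. These recovery shares may therefore be too high for the real data.

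**Figure D3:**
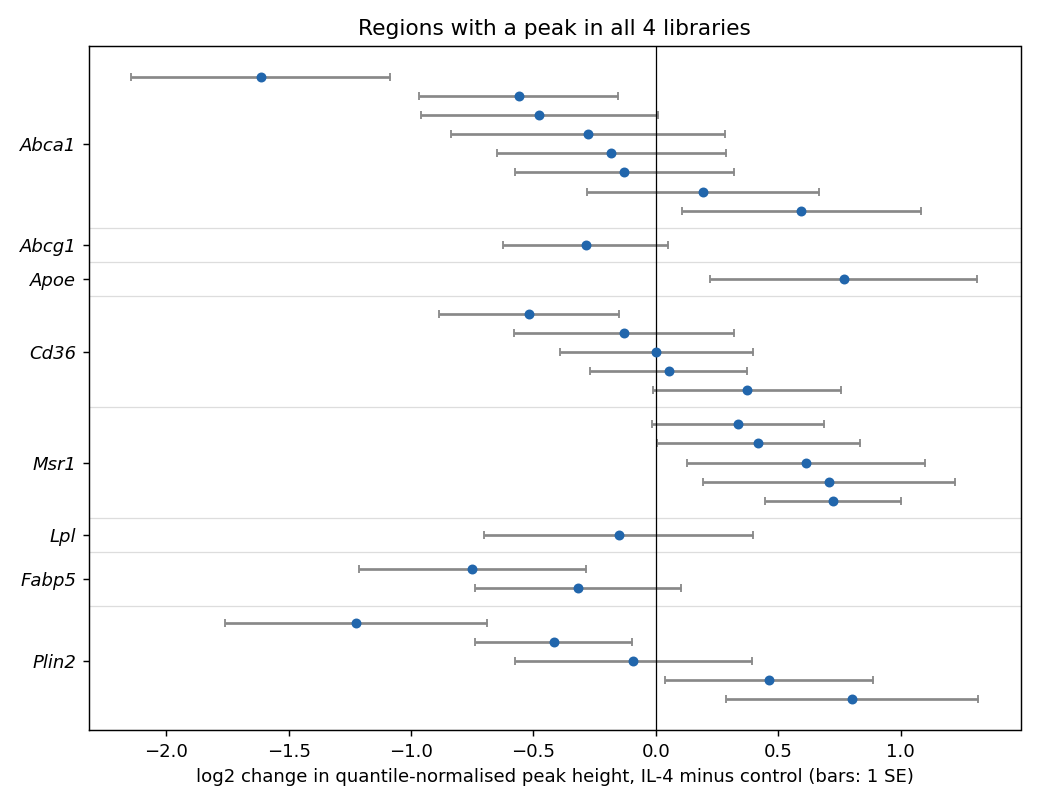
Points give the log2 change in quantile-normalised height, IL-4 minus control, of the 28 regions that all 4 libraries shared (n = 2 libraries per group), grouped by gene, with bars of 1 SE from limma. All 5 Msr1 regions lie above 0, between 0.336 and 0.724, and the Abca1 intron 1 region lies lowest at −1.61. Of the 28 regions 53.6% lie below 0, beside 50.1% of all regions fitted.

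Among the efflux genes, Abca1 held the lowest value of all. This region lay in intron 1, 10014 bp downstream of the TSS (chr4:53149714-53150020). Its heights were 15.45 and 10.07 in the control libraries, against 4.76 and 2.49 after IL-4. Both IL-4 heights were below both control heights. The lowest, 2.49, was shared by 2524 peaks of IL-4 replicate 2 and lay at percentile 9.9 of that library. The log2 change was −1.61 (SE 0.528, limma), a normalised height 0.327 times that of the control, with an unadjusted p of 0.003418 and an adjusted p of 0.3232, so it did not pass the test. The Abca1 promoter (chr4:53159848-53160181) had heights of 12.65 and 8.74 in the control libraries, against 8.78 and 6.95 after IL-4. Those groups overlapped narrowly, and the log2 change was −0.18 (SE 0.467, adjusted p = 0.9519, limma). Over the 8 Abca1 regions, 6 changes were below 0 and 2 above, with a mean of −0.306 and a highest value of 0.595 at the region 27.5 kb upstream. The mean was −0.153 without control replicate 1, −0.479 without control replicate 2, and −0.124 over 6 regions with scores of at least 5.

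Abcg1 had 1 region with a peak in all 4 libraries, 19.1 kb upstream, with a log2 change of −0.29 (SE 0.338, adjusted p = 0.8822, limma). Its heights ranged from 10.05 to 23.6, and the groups overlapped. The single Apoe region lay at the promoter, 635 bp upstream of a start site (chr7:19699713-19699903). Its heights were 5.03 and 3.59 in the control libraries, against 7.85 and 4.78 after IL-4. The lower IL-4 height was below the higher control height, but after normalisation both IL-4 values lay above both control values. The log2 change was 0.77 (SE 0.545, adjusted p = 0.7623, limma).

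**Figure D4:**
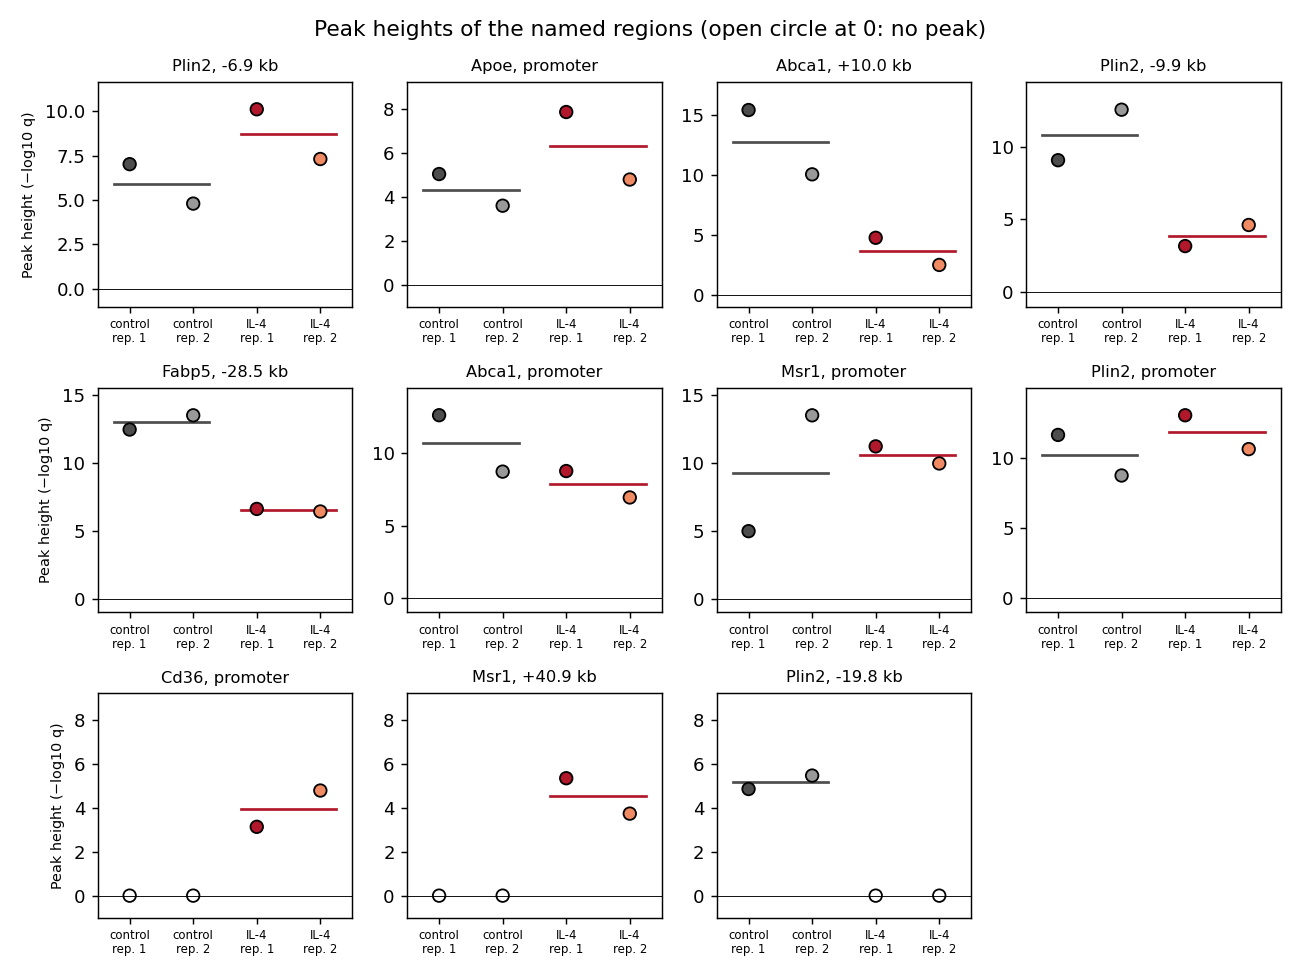
Points give the peak height as −log10 q in each of the 4 libraries, before normalisation, for 11 regions, with a line at the mean of the 2 libraries of a group and an open circle at 0 where a library had no peak. The Abca1 region 10.0 kb downstream of the TSS and the Fabp5 region 28.5 kb upstream lie lower in both IL-4 libraries.

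Among the uptake receptors, the log2 changes of the 5 Msr1 regions fitted were all above 0, and none passed the test. Over all regions fitted, 50.1% of changes were below 0. Both IL-4 libraries lay above both control libraries in normalised height at 2 of the 5, and the groups overlapped at the other 3. The Msr1 promoter (chr8:39642597-39642956) had heights of 4.97 and 13.51 in the control libraries, against 11.22 and 9.96 after IL-4. Here the control libraries lay on either side of both IL-4 libraries, and the log2 change of 0.61 (SE 0.487, adjusted p = 0.7925, limma) went with a low height in control replicate 1. The mean over the 5 Msr1 regions was 0.56. Without control replicate 1 the mean was 0.295, over 6 regions. The regions of a gene share their libraries and are not replicates.

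Cd36 showed no common direction. Its 5 regions had log2 changes from −0.518 to 0.372, with 2 below 0 and 3 above, and a mean of −0.044. Their heights ranged from 7.76 to 27.05, and in normalised height the groups overlapped at each of the 5 regions. Lpl had 1 region with a peak in all 4 libraries, 73.5 kb downstream of the TSS. Its height was 2.62 in IL-4 replicate 2 and 12.96 in IL-4 replicate 1, a spread wider than the difference between the groups (log2 change −0.15, SE 0.549, adjusted p = 0.9685, limma).

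Fabp5 had 2 regions in all 4 libraries, and both had lower normalised heights in both IL-4 libraries. The region 28463 bp upstream (chr3:9983975-9984270) had heights of 12.48 and 13.53 in the control libraries, against 6.62 and 6.43 after IL-4. The replicates were close to each other and the groups did not overlap. Both IL-4 heights recur often, at 1028 peaks of IL-4 replicate 1 and 630 peaks of IL-4 replicate 2, so their closeness says little. The log2 change was −0.75 (SE 0.464, adjusted p = 0.7015, limma). The second region, 13.4 kb downstream, had a log2 change of −0.32. The mean of both was −0.533, and without IL-4 replicate 2 it was −0.878 over 3 regions. Fabp4 could not be fitted, as none of its 3 regions had a peak in all 4 libraries.

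Plin2 regions went both ways. The region 9884 bp upstream (chr4:86679815-86680175) had heights of 9.06 and 12.53 in the control libraries, against 3.16 and 4.61 after IL-4, which did not overlap. Its log2 change was −1.23 (SE 0.536, limma), with an unadjusted p of 0.02623 and an adjusted p of 0.5431. The region 6882 bp upstream (chr4:86676849-86677045) had heights of 7.02 and 4.8 in the control libraries, against 10.11 and 7.31 after IL-4. These did not overlap either, with the IL-4 heights above, and the log2 change was 0.80 (SE 0.514, adjusted p = 0.7153, limma), the highest of the 28. The Plin2 promoter (chr4:86669855-86670179) had heights of 11.62 and 8.73 in the control libraries, against 13.02 and 10.61 after IL-4, with a log2 change of 0.46 (SE 0.424, adjusted p = 0.8319, limma). The raw heights of the groups overlapped at this promoter. Over the 5 Plin2 regions the mean was −0.094.

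Other genes of lipid handling were examined as a list of 52 genes, of which 44 had a region. The list covered nuclear receptors and regulators, lipoprotein uptake, cholesterol ester handling, efflux partners, fatty acid uptake and storage, lipid breakdown and lipid synthesis. These genes had 216 regions, and 96 of these were shared by all 4 libraries. None passed the adjusted threshold, while 5 were higher (5.21%, against 4.12% of all regions) and 4 lower (4.17%, against 4.15%) at an unadjusted p under 0.05. These shares were near those of all regions, and the median log2 change was −0.107, beside −0.001 for all regions. The highest value was at Acsl1, which activates fatty acids for further use, 41.0 kb upstream of its TSS (log2 change 1.62, SE 0.527, adjusted p = 0.3192, limma). The lowest was at the promoter of Fasn, the fatty acid synthase (log2 change −1.12, SE 0.54, adjusted p = 0.5855, limma). Of the 216 regions, 5 were seen only after IL-4 (2.31%, against 2.53% of all regions) and 15 only in the control (6.94%, against 4.33%). Neither count was tested.

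The labelled cell type was checked at marker promoters. Of 7 macrophage markers, Adgre1, Cd68, Fcgr1 and Spi1 had a promoter peak in all 4 libraries and Mertk in 3, while Csf1r and Itgam had none at the promoter and 3 and 4 other regions in all 4 libraries. Of 17 markers of T cells, B cells, neutrophils, mast cells, fibroblasts, endothelium and adipocytes, 16 had no promoter peak in any library, and the endothelial marker Kdr had one in all 4. Counting regions of every class, Kdr had 7 regions in all 4 libraries, Adipoq 2 and Cdh5 1. The summed heights of the macrophage promoters were 65.28 and 62.18 in the control libraries, against 51.05 and 36.72 after IL-4. Those of the other markers ranged from 3.13 to 7.69. These sums used heights before normalisation, and a missing peak, as for Mertk in IL-4 replicate 2, added nothing. The median height of all peaks also differed, at 8.04 and 7.46 (control) and 7.69 and 6.41 (IL-4). The sums were therefore not compared between the groups. The part of the other markers in the results was not tested.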

How the data were processed

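ATAC-seq was performed on nuclei of 4 BMDM cultures, 2 control and 2 IL-4. According to the submitters' processing notes and the study's methods, the authors aligned reads to mm10 with BWA 0.7.10 and SAMtools 0.1.19, called peaks in each library on its own with MACS2 2.0.10, removed blacklisted regions and annotated peaks with HOMER 4.2. Replicates were not pooled. Handling of duplicates and of the Tn5 offset is not given in the sources used here. The deposited peak score carries no stated unit and was read as −log10 of the q-value. The methods name a cut-off of 0.01, which is a score of 2, and 133 to 603 peaks of a library scored lower. Scores are not scaled between libraries, and depth is unknown, so no counting error can be given. DiffBind, which the authors ran on reads, was not used.

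Peaks of the 19 autosomes and of X and Y were merged, and bedtools 2.31.1 gave the same 60710 regions. No peak lay beyond a chromosome end of GRCm38.p6. Regions took the highest score of each library. Heights were log2-transformed, quantile-normalised and fitted with limma 3.58.1 in R 4.3.3 (eBayes with a trend), and p-values were adjusted over all 25442 regions. Library counts were compared by exact permutation with scipy 1.17.1. The fit and the motif search were tested on simulated data. The genes and lists were chosen with earlier results of these data known. Heights were given in every library for promoters with a peak in all 4 libraries, for the 3 highest and 3 lowest changes and for regions of one group alone. One region that this rule names is not reported here. Motif sequences were described without a test. For 2 markers, Adgre1 and Spi1, the files use an older symbol. Alternatives were another scaling, region filter, moderation, score minimum, merging and TSS limit, a replicate block, and leaving out each library.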

Additional observations from a re-analysis of the deposited data

How the results depend on the processing

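No region of the 9 genes passed the adjusted threshold under any of the 13 alternatives. The 6 regions with the largest changes kept their direction wherever they could be fitted. They were picked for their changes in these same libraries, so this was largely set by the choice and lends no support. The median log2 change was 0.1 with regions in at least 3 libraries, and −0.141 to 0.047 when each library was left out in turn. Without IL-4 replicate 2 it was 0.047 and without control replicate 1 it was −0.013. The number of regions in one group alone, 3 with all libraries, was 7 to 14 when each library was left out, since a group of 1 library needs 1 peak only. With scores of at least 5 it was again 3, but these were other regions, all of them control-only. The difference in regions with a peak, 1.5 with all libraries, was −0.5 with scores of at least 5, and −1.5 to 4.0 when each library was left out. With a replicate block the median stayed at −0.11 with 0 calls. The 2 same-numbered pairs gave a correlation of deviations of 0.0068 over all regions and of 0.3067 over the 28 regions of the 9 genes. Nothing in the labels ties same-numbered libraries together and there are only 2 pairs, so the numbers were not treated as pairing. Of the gene means, those of Abca1, Apoe, Fabp5 and Msr1 kept their sign under every alternative that gave a value, though for Abca1, Fabp5 and Msr1 the size moved by over 1.5 times, and the sign turned in 1 of 11 alternatives for Abcg1, 4 of 11 for Cd36, 4 of 10 for Lpl and 2 of 11 for Plin2. The cause of these shifts was not tested. With 2 libraries per group and unknown depth, a missing peak cannot be told from a peak under the caller's threshold.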

Other observations

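Among the 52 genes of lipid handling, Pparg, which encodes the nuclear receptor PPARγ, had 2 IL-4-only regions. They were chosen after their values were seen. One lay at the promoter, 14 bp upstream of the TSS (chr6:115361019-115361313), with heights of 5.67 and 5.95 in the IL-4 libraries and no peak in the control libraries. The other was intronic (chr6:115469930-115470101), with heights of 6.62 and 12.39. Scd2, which encodes a fatty acid desaturase, had 2 control-only regions upstream of its TSS, also chosen after their values were seen. The farther one (chr19:44264342-44264526) had heights of 18.56 and 7.19 and the nearer one (chr19:44280863-44281082) had 5.26 and 6.98. None of these 4 regions could be fitted, since either the control or the IL-4 libraries had no peak there. Nceh1 and the RXR gene Rxra likewise had 2 control-only regions each, so this count is not particular to Scd2. Of the 216 regions of the listed genes, 2.31% were IL-4-only, against 2.53% of all regions. Control-only regions made up 6.94%, against 4.33% of all regions. These shares were not tested.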
